A study of Homo sapiens with 12 samples.

Results

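The genes of non-muscle myosin II and of the kinases that act on it were described across 12 RNA sequencing libraries. The 10 genes were taken by symbol from the 38434 named genes that both count tables list. They are the heavy chains MYH9, MYH10 and MYH14, the essential light chain MYL6, the regulatory light chains MYL9, MYL12A and MYL12B, and the kinases MYLK, ROCK1 and ROCK2. The list was chosen by symbol with the maspin against ctrl log2 fold changes of both cell lines known, so that those values are given here as a description and carry no p-value. All 10 genes passed the filter on low counts in every comparison. Maspin, the product of SERPINB5, is a serpin described as a tumor suppressor.

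The 2 cell lines, RERF-LC-AI and LK-2, are human and labelled as lung squamous cell carcinoma (LUSC). LK2-ctrl and LC-AI-ctrl cells stably express the fluorescent protein ZsGreen from a lentiviral vector, and LK2-maspin and LC-AI-maspin cells express maspin together with ZsGreen. All 4 groups therefore carry a vector and were selected with blasticidin, and each is a pool of resistant clones and not 1 clone. LK-2 cells were grown in RPMI1640 and RERF-LC-AI cells in Eagle's minimum essential medium. Each group has 3 libraries. No source used here says whether these were grown as separate cultures, and p-values then measure only the spread between libraries of 1 pool, which may be technical.

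Non-muscle myosin II is the contractile motor of cells outside striated muscle. A pair of heavy chains moves along actin filaments, and each heavy chain carries 1 essential and 1 regulatory light chain. Phosphorylation of the regulatory light chain by myosin light chain kinase (MYLK) or by the kinases ROCK1 and ROCK2 lets the molecules assemble into filaments and pull, and myosin phosphatase reverses it. The motor drives cell rounding, retraction of the rear of migrating cells and division, and in epithelial cells it tensions the junctions.

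Library totals over named genes ran from 39802246 to 54941357 counts for LK-2, and from 50143577 to 65454432 for RERF-LC-AI. SERPINB5 followed the labels, with 1.70 to 1.90 CPM (counts scaled to library size) in LK2-ctrl, 44.8 to 47.4 CPM in LK2-maspin, 0.154 to 0.291 CPM in LC-AI-ctrl and 470.3 to 551 CPM in LC-AI-maspin libraries. All CPM values were scaled with TMM factors over the 12 libraries. The 11 squamous markers examined summed to 541 to 602 CPM in LK2-ctrl libraries, most of it SOX2, but to 16.3 to 16.8 CPM in LC-AI-ctrl libraries. TP63 was at or under 1.56 CPM and KRT5 under 1 CPM in the ctrl libraries of both lines, so that these defining squamous markers were nearly absent. A list of 9 smooth muscle genes, which share their regulators with several genes described here, summed to 34.0 to 36.9 CPM in LK2-ctrl and to 298 to 322 CPM in LC-AI-ctrl libraries. Most of that sum was TAGLN and SMTN, while the smooth muscle heavy chain MYH11 was at or under 2.46 CPM and desmin (DES) at or under 0.388 CPM in all libraries. A list of 6 blood cell markers summed to 6.63 to 7.63 CPM in LK2-ctrl and to 49.8 to 50.6 CPM in LC-AI-ctrl libraries, most of it CD68, with PTPRC at or under 1.25 CPM in all libraries. In such bulk libraries, fewer cells of a type and less RNA per cell cannot be told apart.

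Of the 3 regulatory light chains, MYL12A and MYL12B are near copies of one another, which bears on how reads can be assigned to them. MYL12A and MYL12B are neighbours on the plus strand of chromosome 18 (GRCh38, chr18:3247481-3256236 and chr18:3261479-3278461), and MYL9 lies on chromosome 20 (chr20:36541497-36551447, plus strand). The stretches below are 120 coding bases (exonic, bases 40 to 159 of the coding sequence of MYL12B and MYL9, bases 37 to 156 of MYL12A) around the codons acatcc, at bases 16 to 21 of each stretch. These encode the adjacent threonine and serine that the kinases phosphorylate. They are shown because the site that links the kinases to the motor is the same in all 3 genes, and were read from GENCODE v44 transcripts. Capitals mark bases that differ from MYL12B.
MYL12B: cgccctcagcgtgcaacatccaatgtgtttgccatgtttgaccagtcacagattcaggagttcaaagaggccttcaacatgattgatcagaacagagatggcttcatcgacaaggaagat
MYL12A: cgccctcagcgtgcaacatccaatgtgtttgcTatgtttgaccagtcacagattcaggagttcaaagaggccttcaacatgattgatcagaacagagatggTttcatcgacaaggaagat
MYL9: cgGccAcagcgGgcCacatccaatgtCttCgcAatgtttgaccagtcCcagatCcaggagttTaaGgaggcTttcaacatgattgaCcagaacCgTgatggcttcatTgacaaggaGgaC
MYL12A differed from MYL12B at 2 and MYL9 at 18 of these 120 bases, and none of the differences fell in the phosphorylated codons. Over the whole coding sequence, MYL12A and MYL12B were 95.2% identical, MYL9 and MYL12B 80.8% and MYL9 and MYL12A 78.9%. Of all windows of 50 bases in the transcripts, 12.2% of those of MYL12A and 10.1% of those of MYL12B also occurred in another gene, against none of those of MYL9. MYL12A shared 8.36% of its windows with MYL12B, and MYL12B 6.82% with MYL12A. Further windows occurred in their pseudogenes, such as MYL12AP1 and MYL12BP1. The split of reads between MYL12A and MYL12B is therefore less certain than their sum, which the pseudogenes may also affect. MYL9 is well separated. The heavy chains were 64.7 to 71.8% identical in coding sequence, and no more than 0.621% of their windows were shared. ROCK1 shared 13.6% of its windows with its pseudogene ROCK1P1.

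Of all 10 genes, MYH9 was the most abundant by CPM in every library and MYH14 or MYL9 the least. Per kilobase of transcript (CPM per kb), the order differed between the lines. In LK2-ctrl cells, MYL6 led with 247 ± 15.8 CPM per kb (SD, n = 3), followed by MYL12A, MYL12B, MYH9, MYH10, ROCK2, ROCK1, MYLK, MYH14 and MYL9. In LC-AI-ctrl cells, MYL12A led with 1096 ± 47.4 CPM per kb, followed by MYL12B, MYL6, MYH9, MYL9, MYH10, ROCK2, MYLK, ROCK1 and MYH14. No neighbours in either order overlapped between libraries. In LK2-maspin cells MYH14 stood above MYLK, and in LC-AI-maspin cells MYL12B and MYL12A overlapped. The order of MYL12A and MYL12B in LC-AI-ctrl cells rests on their transcript lengths, 958 and 1163 bases. By CPM, MYL12B was the higher in LC-AI-ctrl libraries, at 1209.7 to 1229 against 1020.4 to 1102.5 CPM. The place of MYL9 depends on its length, since its main transcript of 2786 bases gave 78.3 ± 4.74 CPM per kb in LC-AI-ctrl cells, while its shorter coding transcript of 1024 bases would give 213 CPM per kb.

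**Figure D1:**
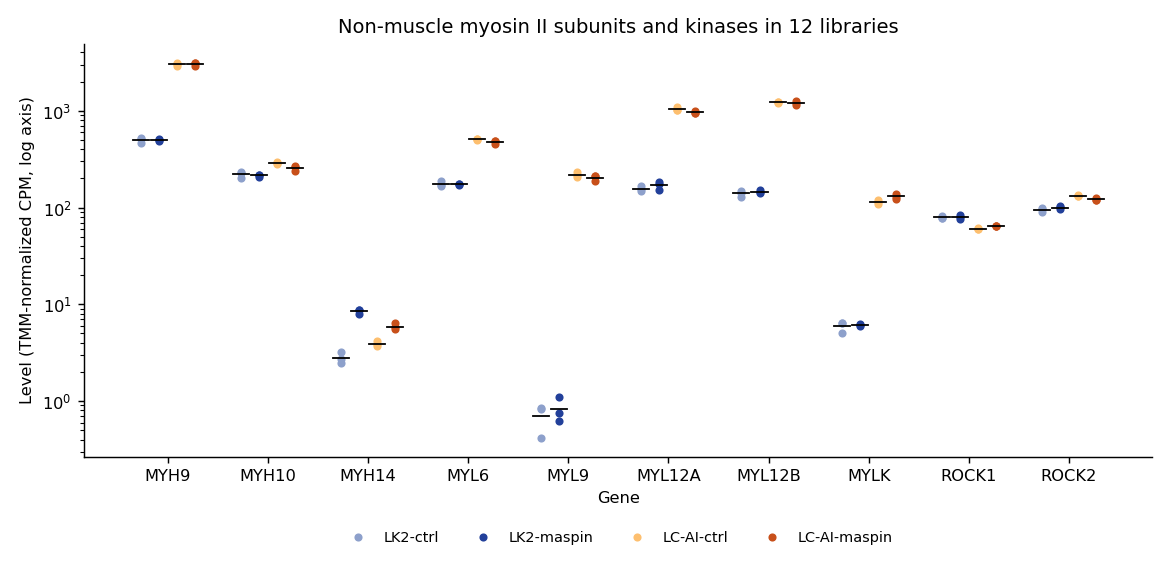
CPM (TMM-normalized, log axis) of the 10 genes in each library, with 1 point per library, colored by group, and a line at the mean of the 3 libraries of a group. MYL9 lies at or under 1.09 CPM in all LK-2 libraries and at or over 188 CPM in all RERF-LC-AI libraries, while MYH14 is the only gene whose maspin libraries lie above the ctrl libraries in both lines.

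Between the ctrl lines, a comparison that the choice of genes did not use, 9 of the 10 genes were higher in LC-AI-ctrl than in LK2-ctrl cells and ROCK1 was lower. All 10 passed the test (edgeR's quasi-likelihood test, Benjamini-Hochberg adjusted over all genes tested), and in none did the groups overlap. So many genes differ between these lines that the background has to stand beside this count. Of 26179 genes tested 63.8% were called, 31.6% higher and 32.1% lower, of genes with a mean of at least 10 CPM 52.6% were called higher, and 68.6% of genes did not overlap. The median log2 fold change of the 10 genes was 2.06, against -0.10 over all genes tested. Cell line, medium and the separate making of the 2 tables cannot be told apart in this comparison.

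The largest difference was that of MYL9, the regulatory light chain typical of smooth muscle. MYL9 was at 0.830, 0.416 and 0.850 CPM in LK2-ctrl replicates 1, 2 and 3, from 24 to 42 counts, and at 232, 217 and 205 CPM in those of LC-AI-ctrl. It was thus nearly silent in one line and abundant in the other, and differed by 8.30 ± 0.15 (log2 fold change ± SE, n = 3 against 3, edgeR adjusted p = 3.34e-15). MYL12A and MYL12B, the regulatory light chains of most other cells, were present in both lines. MYL12B stood at 143, 149 and 129 CPM in LK2-ctrl and at 1226, 1229 and 1209.7 CPM in LC-AI-ctrl libraries (log2 fold change 3.12 ± 0.07, adjusted p = 1.97e-14). MYL12A stood at 148, 165 and 156 CPM and at 1102.5, 1028 and 1020.4 CPM (2.74 ± 0.07, adjusted p = 8.22e-14). The essential light chain MYL6, which stabilizes the neck of the heavy chain, was at 170.3, 188 and 167 CPM and at 506, 496 and 512 CPM (1.53 ± 0.06, adjusted p = 2.87e-11). All 4 light chains were therefore higher in LC-AI-ctrl cells, with no library of one line near the range of the other. The smooth muscle list given above moved with them, without MYH11 and DES, and its part in these values was not tested.

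The heavy chains differed in unequal measure. MYH9, the heavy chain of myosin IIA, was at 519.7, 512 and 464 CPM in LK2-ctrl and at 3135, 2920 and 3063 CPM in LC-AI-ctrl libraries (2.60 ± 0.06, adjusted p = 5.88e-14). MYH10, the heavy chain of myosin IIB, was at 225, 233 and 202 CPM and at 279.9, 294 and 289 CPM (0.38 ± 0.07, adjusted p = 0.000153). MYH14, the heavy chain of myosin IIC, was at 2.71, 2.50 and 3.22 CPM and at 4.16, 3.90 and 3.73 CPM (0.48 ± 0.16, adjusted p = 0.0163). The difference was large for MYH9 and small for the other heavy chains. The call of MYH14 was lost with upper-quartile factors or library size only, and without LK2-ctrl replicate 2 or LC-AI-ctrl replicate 1, with adjusted p up to 0.188 and log2 fold changes from 0.26 to 0.60.

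Expressed as shares of the heavy chain transcripts per kb, MYH9 made up 69.8 ± 0.55% in LK2-ctrl and 91.5 ± 0.468% in LC-AI-ctrl cells (SD, n = 3). MYH10 made up 29.8 ± 0.598% and 8.39 ± 0.468%, and MYH14 0.427 ± 0.0846% and 0.128 ± 0.00644%. None of these shares overlapped between the lines, so that LC-AI-ctrl cells had a make-up with more MYH9 and less MYH10 although the CPM of both was higher there. Among the regulatory light chains, MYL9 made up 0.0894 ± 0.0344% in LK2-ctrl and 3.52 ± 0.127% in LC-AI-ctrl cells, MYL12A 57.5 ± 1.92% and 49.3 ± 0.906%, and MYL12B 42.4 ± 1.93% and 47.2 ± 1.0%. With the shorter coding transcript of MYL9, its share would be 0.243 ± 0.0933% and 9.02 ± 0.307%.

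**Figure D2:**
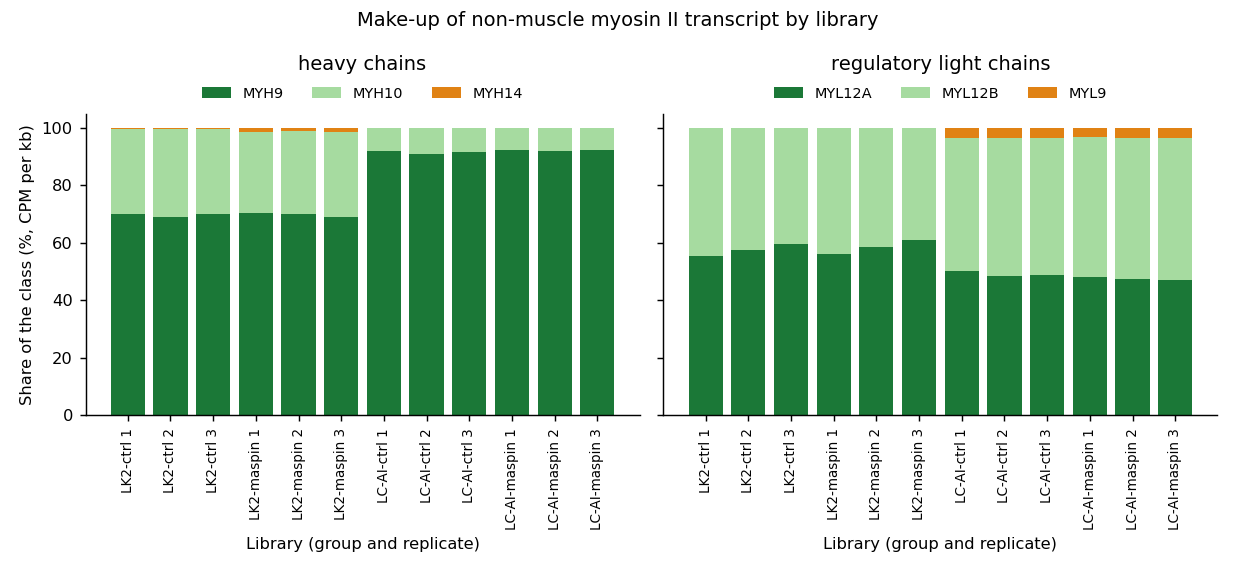
Stacked bars give each gene's share (%) of its class in CPM per kb, for heavy chains (left) and regulatory light chains (right), with 1 bar per library. MYH9 takes about the same share in all LK-2 bars (69.1 to 70.4%) and a larger one in all RERF-LC-AI bars (91.0 to 92.3%), and MYL9 is visible only in RERF-LC-AI bars.

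Of the kinases, MYLK, the calmodulin-dependent kinase dedicated to the regulatory light chain, was at 6.36, 5.07 and 6.37 CPM in LK2-ctrl and at 121, 108 and 113 CPM in LC-AI-ctrl libraries (4.26 ± 0.10, adjusted p = 3.88e-14). The kinases ROCK1 and ROCK2, whose substrates include the regulatory light chain and the phosphatase, went in opposite directions. ROCK1 was at 81.6, 78.7 and 77.2 CPM in LK2-ctrl and at 61.0, 59.7 and 59.3 CPM in LC-AI-ctrl libraries (-0.41 ± 0.06, adjusted p = 5.79e-05). ROCK2 was at 99.0, 96.3 and 90.3 CPM and at 132, 134 and 131 CPM (0.47 ± 0.06, adjusted p = 1.26e-05). Their differences were small beside that of MYLK. With upper-quartile factors or library size only, the median of all genes moved from -0.10 to -0.32, and the called genes split into 6851 higher and 10768 lower in place of 8283 and 8407. All 10 genes kept their direction under these scalings, with MYH10 at 0.17 to 0.42 and ROCK1 at -0.62 to -0.36 over all alternatives.

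**Figure D3:**
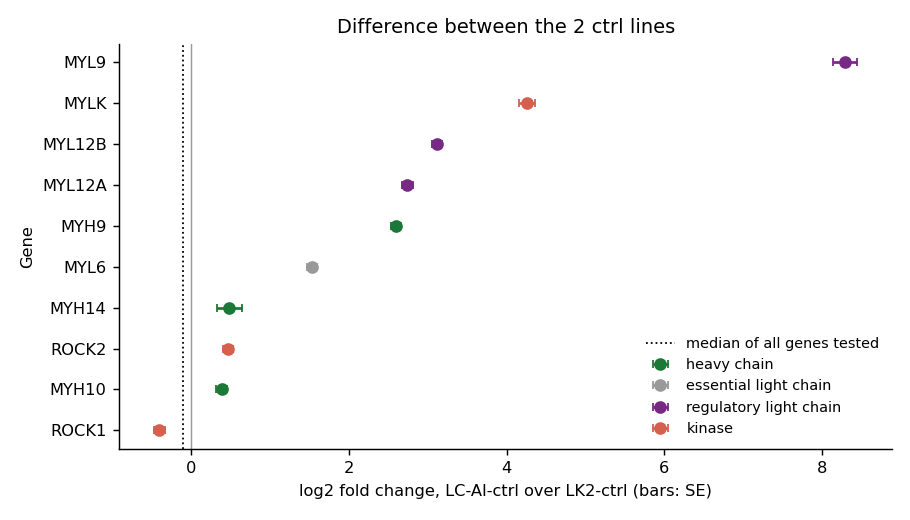
Log2 fold change of LC-AI-ctrl over LK2-ctrl cells (horizontal axis, bars are SE) for each gene, colored by role, with a dotted line at the median of all genes tested (-0.10). The light chains, MYH9 and MYLK lie from 1.53 to 8.30, and MYH14, ROCK2, MYH10 and ROCK1 lie within 0.49 of 0.

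MYLK has an additional start near the 3′ end of the gene, used for a short product without the kinase domain, and counts per gene do not separate it from the long forms. The window around that start (RefSeq, GRCh38.p14, chr3:123620499-123620798, minus strand, inside the gene at chr3:123610049-123884332) is shown because it holds a CArG box, the motif bound by serum response factor (SRF), in capitals.
MYLK: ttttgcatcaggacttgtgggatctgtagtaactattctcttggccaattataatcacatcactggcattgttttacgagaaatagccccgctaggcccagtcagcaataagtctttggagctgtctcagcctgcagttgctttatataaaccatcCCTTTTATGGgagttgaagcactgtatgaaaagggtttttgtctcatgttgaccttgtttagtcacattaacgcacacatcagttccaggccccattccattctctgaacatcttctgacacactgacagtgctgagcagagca
The box begins 94 bases before the start (position -94). Of 35116 promoter windows of the same length, from 250 bases before to 50 after a start, 1.29% hold a CArG box on either strand (the pattern is its own reverse complement). Of the 14 windows listed for 9 of the 10 genes, 2 hold one, this window and 1 of ROCK2. MYL9 has no entry in the promoter table. SRF itself was at 53.3 CPM in LK2-ctrl and at 143 CPM in LC-AI-ctrl cells (1.42 ± 0.09, adjusted p = 2.90e-09). Its cofactor MRTFB went the other way (-0.42 ± 0.08, adjusted p = 0.000327), and the cofactors MRTFA (0.12) and MYOCD (-0.36) were not called. The part of SRF in the MYLK values was not tested.

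In LK-2 cells, maspin libraries differed from ctrl libraries in MYH14, which was higher with maspin. The other 9 genes were not called. These values chose the list, so that 1 of 10 called (0.533% of all genes tested) and 1 of 10 not overlapping (11.6% of genes with at least 10 counts in 3 libraries) are given as counts from which nothing is read. In RERF-LC-AI cells 3 of 10 were called, MYH14 and MYLK higher (4.01% of all genes tested were called higher) and MYH10 lower (6.53% lower, 10.5% in either direction). The groups did not overlap for 7 of 10 genes (24.9% of genes). These counts, too, are only a description.

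MYH14 was at 2.71, 2.50 and 3.22 CPM in LK2-ctrl replicates 1, 2 and 3 and at 8.82, 7.94 and 8.70 CPM in those of LK2-maspin, from 137 to 510 counts. Every maspin library exceeded every ctrl library, with a log2 fold change of 1.60 ± 0.14. In RERF-LC-AI cells MYH14 was at 4.16, 3.90 and 3.73 CPM in LC-AI-ctrl and at 5.79, 6.33 and 5.49 CPM in LC-AI-maspin libraries, again without overlap (0.58 ± 0.13). On the log2 scale, subtracting the LK-2 effect from that of RERF-LC-AI gave -1.02 ± 0.18. Of all genes tested, 0.228% had a larger change in the LK-2 comparison and 8.21% in the RERF-LC-AI comparison. The list was chosen with these values known, so the ranks are a description from which nothing is read. Over the 15 alternatives in each line, the log2 fold changes of MYH14 ranged from 1.51 to 1.73 and from 0.52 to 0.63. Even so it remained a minor heavy chain, since its share per kb was 1.28 ± 0.0943% in LK2-maspin and 0.193 ± 0.0152% in LC-AI-maspin cells.

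The promoter window that RefSeq gives for MYH14 (GRCh38.p14, chr19:50203372-50203671, plus strand, inside the gene span of chr19:50188186-50310542) is shown as an illustration. MYH14 was picked after its values were seen, as the gene of the list with the largest maspin log2 fold change in both lines. Capitals mark CCAAT boxes, searched as CCAAT on either strand (ATTGG on the strand shown), a motif chosen after the sequence was seen.
MYH14: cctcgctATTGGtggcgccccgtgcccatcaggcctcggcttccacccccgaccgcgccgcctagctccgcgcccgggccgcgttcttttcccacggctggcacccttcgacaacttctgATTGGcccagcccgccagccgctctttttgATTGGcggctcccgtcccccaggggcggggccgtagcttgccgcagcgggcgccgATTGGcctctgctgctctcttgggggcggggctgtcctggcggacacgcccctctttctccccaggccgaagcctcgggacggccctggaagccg
The window holds 4 such boxes, no CArG box and no TATAAA. Of all windows, 34.6% hold at least 1 CCAAT and 0.991% hold at least 4, and of the 14 windows of the genes described here 8 hold at least 1. Its GC content was 71.7%, against a median of 58.7% over all windows. MYH14 shared 0.0728% of its transcript windows with another gene, MYH11, so that few reads could be misplaced between them.

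The 5 genes whose pattern over the 12 libraries was most like that of MYH14, after the ctrl mean of each line was subtracted, were ABCA5, PXDN and C3orf52 (Pearson's r of 0.948 each), KIF26A (0.945) and CBFA2T2 (0.938), out of 23973 genes compared. The libraries share their pools and the genes were picked for the likeness, so that the correlations are a description. Their log2 fold changes, first in LK-2 and then in RERF-LC-AI, were 0.66 and 0.30 for ABCA5, 1.46 and 0.26 for PXDN, 0.59 and 0.10 for C3orf52, 0.92 and 0.44 for KIF26A, and 0.27 and 0.09 for CBFA2T2.

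The major heavy chains differed little between maspin and ctrl cells. MYH9 was at 501, 512 and 488 CPM in LK2-maspin and at 2872, 3086 and 3105 CPM in LC-AI-maspin libraries, overlapping the ctrl libraries above. Its log2 fold changes were 0.01 ± 0.06 (95% interval -0.10 to 0.12) for the LK-2 line and -0.01 ± 0.05 (-0.10 to 0.08) for the RERF-LC-AI line. MYH10 was at 208, 219 and 216 CPM in LK2-maspin libraries, inside the LK2-ctrl range (-0.04 ± 0.06). In LC-AI-maspin libraries it was at 241, 266 and 260.2 CPM, all below the lowest LC-AI-ctrl library (-0.17 ± 0.05). Its call was lost when all 12 libraries were fitted together and without LC-AI-ctrl replicates 2 or 3 or LC-AI-maspin replicates 1 or 3.

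None of the light chains was called in either line by edgeR's quasi-likelihood test with all libraries of the line. MYL12A was called lower in RERF-LC-AI cells with DESeq2 and without LC-AI-maspin replicate 2. MYL6 was at 174, 176 and 173 CPM in LK2-maspin libraries (0.00 ± 0.06) and at 448, 491 and 484 CPM in LC-AI-maspin libraries, all below the LC-AI-ctrl libraries (-0.09 ± 0.05). MYL12A was at 152, 176 and 183 CPM in LK2-maspin libraries, which overlapped LK2-ctrl (0.12 ± 0.08), and at 952, 988 and 943 CPM in LC-AI-maspin libraries, all below LC-AI-ctrl (-0.13 ± 0.05). MYL12B, the neighbour of MYL12A, overlapped in both lines, with 144, 150.4 and 142 CPM (0.05 ± 0.06) and 1160.1, 1249 and 1192 CPM (-0.02 ± 0.04). MYL9 stayed nearly silent in LK2-maspin cells, at 0.623, 1.09 and 0.755 CPM (0.23 ± 0.35, 95% interval -0.45 to 0.91), and was at 188, 209.7 and 212 CPM in LC-AI-maspin libraries, overlapping LC-AI-ctrl (-0.10 ± 0.05). For MYL9 in LK-2 cells the counts, from 24 to 46 per library, leave a wide interval.

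Of the kinases, MYLK was at 6.31, 6.12 and 5.96 CPM in LK2-maspin libraries, within the LK2-ctrl range (0.05 ± 0.13). In LC-AI-maspin libraries it was at 122, 139 and 129 CPM, all above the LC-AI-ctrl libraries (0.19 ± 0.05), although the lowest maspin library (122 CPM) and the highest ctrl library (121 CPM) nearly met. Its call was lost when all 12 libraries were fitted together and without LC-AI-ctrl replicates 2 or 3 or LC-AI-maspin replicates 2 or 3. ROCK1 was at 78.9, 83.4 and 76.7 CPM in LK2-maspin (0.01 ± 0.06) and at 63.8, 63.7 and 64.3 CPM in LC-AI-maspin libraries (0.09 ± 0.05), above all LC-AI-ctrl libraries but not called. ROCK1P1, the pseudogene that shares sequence with ROCK1, was higher in LC-AI-maspin cells (4.62 to 5.12 CPM in ctrl, 6.37 to 7.53 CPM in maspin libraries, 0.48 ± 0.12, adjusted p = 0.00661), and its part in the ROCK1 values was not tested. ROCK2 was at 103, 100.1 and 95.9 CPM in LK2-maspin (0.07 ± 0.06) and at 119, 126 and 120.5 CPM in LC-AI-maspin libraries (-0.12 ± 0.05), below all LC-AI-ctrl libraries but not called.

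**Figure D4:**
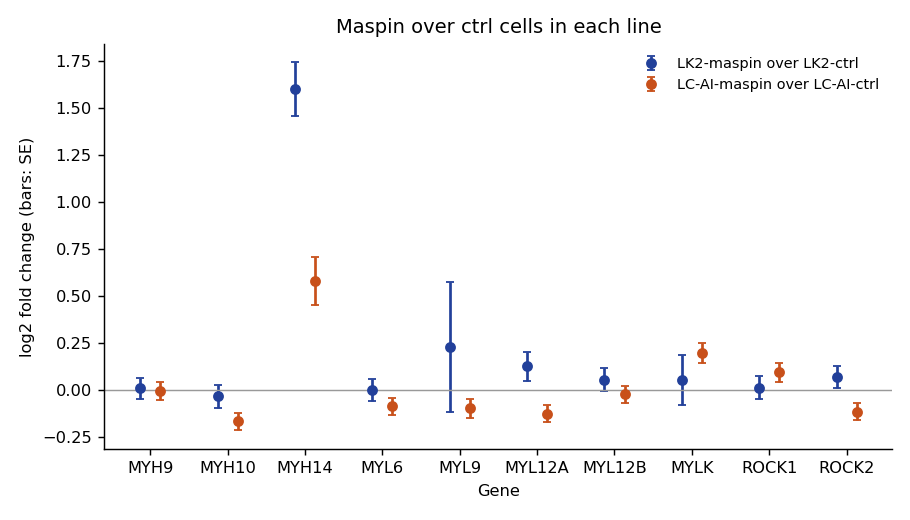
Maspin over ctrl log2 fold change (vertical axis, bars are SE) of each gene, for the LK-2 line (blue) and the RERF-LC-AI line (orange). MYH14 stands at 1.60 and 0.58, the other genes lie between -0.17 and 0.23, and the widest bar is that of MYL9 in LK-2 cells.

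Around the motor, 125 genes in 8 lists were examined. These lists, too, were written with earlier results of these data known. The shares of them called below are therefore a description, and the adjusted p-values do not allow for the choice of the lists. They hold myosin phosphatase, small GTPases upstream of ROCK and their regulators, other light chain kinases with calmodulin, other direct or indirect targets of ROCK, partners on the actin filament, SRF and its cofactors, and the other conventional and the unconventional myosins. In LK-2 cells 1 of 114 genes tested was called, against 0.533% of all genes. It was RHOB, a small GTPase induced early by stress and growth factors, at 31.4, 35.2 and 38.8 CPM in LK2-ctrl and 49.5, 55.9 and 54.6 CPM in LK2-maspin libraries, which did not overlap (0.60 ± 0.09, adjusted p = 0.0107). Leaving out replicate 2 of either group ended the call (adjusted p up to 0.105).

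In RERF-LC-AI cells 32 of 116 genes tested were called, 5 higher and 27 lower. That is 4.31% higher and 23.3% lower. Of all genes tested 4.01% were higher and 6.53% lower, and of those with a mean of at least 10 CPM 7.44% and 13.9%. The lists hold genes on both sides of that level. The median log2 fold change of the lists was -0.06, against 0.01 over all genes tested. The balance over all genes depended on the scaling, with 1010 called higher and 1645 lower in the main fit. With upper-quartile factors these were 1305 and 1388, and with library size only 1408 and 1287. The median of all genes was then 0.04 and 0.05. The partners on the actin filament held 7 lower and no higher genes of 20. Among them were LIMCH1, an activator of myosin IIA (-0.48 ± 0.05, adjusted p = 8.01e-08), S100A4, a calcium-binding protein that binds the MYH9 tail (-0.50 ± 0.07, adjusted p = 1.31e-05), the division ring scaffold ANLN (-0.32 ± 0.05, adjusted p = 6.19e-05) and the crosslinker ACTN4 (-0.25 ± 0.04, adjusted p = 0.000151).

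The list of small GTPases and their regulators held 4 higher and 7 lower genes of 20. The 4 with the smallest adjusted p were ARHGDIB, which keeps small GTPases in the cytosol (-1.11 ± 0.13, adjusted p = 3.00e-07), the GTPase-activating protein ARHGAP29 (-0.35 ± 0.05, adjusted p = 4.47e-05), the guanine nucleotide exchange factor ARHGEF2 (0.41 ± 0.07, adjusted p = 7.12e-05) and RND3, which binds and inhibits ROCK1 (-0.31 ± 0.06, adjusted p = 0.000530). Both inhibitors and activators of these GTPases were thus among the called genes. RHOB rose in this line too (0.23 ± 0.07, adjusted p = 0.0387), but its call was lost in a joint fit of the 12 libraries, with DESeq2, and without LC-AI-ctrl replicate 2 or 3 or LC-AI-maspin replicate 1 or 3 (adjusted p up to 0.277).

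Of the 10 genes tested in the myosin phosphatase list, a catalytic subunit of protein phosphatase 1, PPP1CA, fell (-0.26 ± 0.05, adjusted p = 0.000208). The phosphatase inhibitor PPP1R14A (-0.74 ± 0.10, adjusted p = 1.01e-05) also fell, and the related inhibitor PPP1R14C (0.62 ± 0.19, adjusted p = 0.0380) rose. The catalytic subunits PPP1CB (-0.07), which is the one of myosin phosphatase, and PPP1CC (-0.13) were not called. The targeting subunit PPP1R12A was not called either (-0.10). Of the list of direct and indirect ROCK targets 3 of 11 fell. They were the membrane-actin linkers RDX (-0.33 ± 0.05, adjusted p = 5.19e-05) and MSN (-0.15 ± 0.05, adjusted p = 0.0379) and the actin-severing CFL1 (-0.16 ± 0.05, adjusted p = 0.0245). CFL1 is not a direct substrate, since ROCK acts on it through LIMK1 and LIMK2, which were not called (-0.09 and -0.04). Among the other light chain kinases and calmodulin, which activates MYLK, CALM3 (-0.20 ± 0.05, adjusted p = 0.00281), CALM2 (-0.15 ± 0.05, adjusted p = 0.0291) and citron kinase (CIT, -0.20 ± 0.05, adjusted p = 0.00488) fell. The calls of CALM2, CFL1, MSN and PPP1R14C were each lost without LC-AI-ctrl replicate 2 or 3 or LC-AI-maspin replicate 1 or 3. Those of CALM2, CFL1 and MSN were also lost without LC-AI-ctrl replicate 1, and that of PPP1R14C without LC-AI-maspin replicate 2 and with DESeq2. A joint fit of the 12 libraries ended these 4 calls and that of CIT, with adjusted p up to 0.223 over these alternatives.

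Of the SRF cofactors, MRTFB fell (-0.31 ± 0.06, adjusted p = 0.000620) and SRF, MRTFA and MYOCD were not called. Of 24 unconventional myosins 3 fell, MYO18A, which co-assembles with non-muscle myosin II (-0.60 ± 0.06, adjusted p = 6.29e-08), MYO6, which moves toward the pointed end of actin (-0.24 ± 0.05, adjusted p = 0.00120), and the membrane tether MYO1C (-0.17 ± 0.05, adjusted p = 0.0117). The call of MYO1C was lost in the joint fit of the 12 libraries and without LC-AI-ctrl replicate 3 or LC-AI-maspin replicate 1 or 3 (adjusted p up to 0.0843). None of the 11 other conventional myosin genes tested was called (9 of 20 did not pass the filter).

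**Figure D5:**
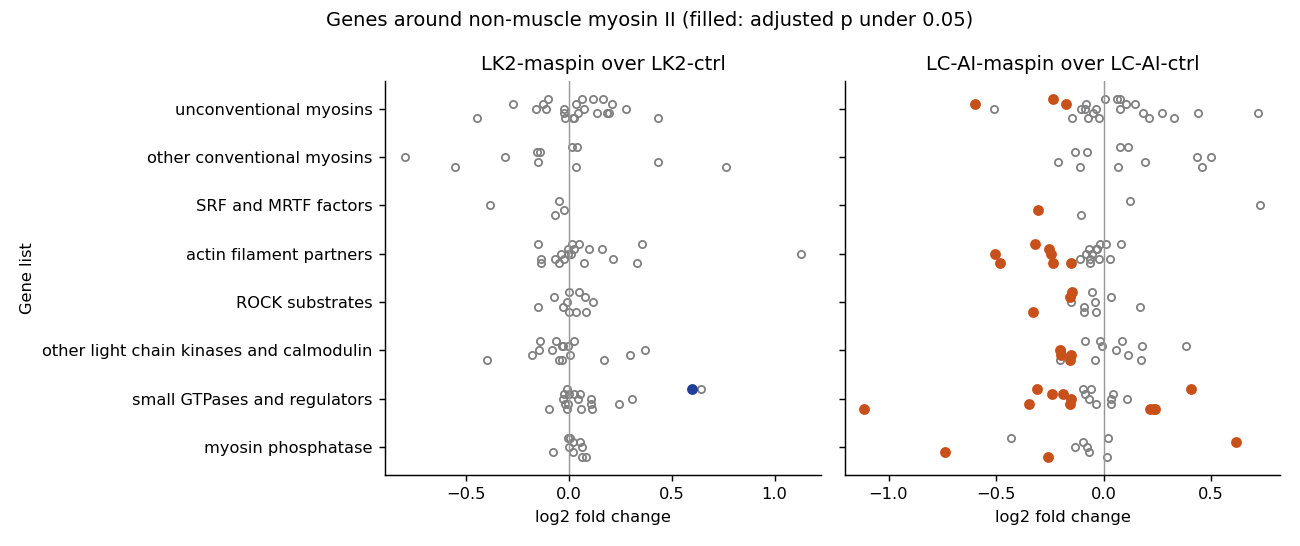
Maspin over ctrl log2 fold change (horizontal axis) of each gene of the 8 lists (rows), with the LK-2 line on the left and the RERF-LC-AI line on the right, with filled points for an adjusted p under 0.05. The left panel has 1 filled point (RHOB, 0.60) and the right one 32, of which 27 lie below 0.

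The difference in maspin effect between the lines was tested for the same lists in 1 fit of all 12 libraries. It was called for 10 of 119 genes tested, against 1.76% of all genes, and in all 10 the RERF-LC-AI effect was the lower one. That direction also prevailed over all genes, where 381 of the 494 called had the lower effect in RERF-LC-AI cells and 113 the higher. MYO18A, for example, was at 26.5, 34.0 and 37.7 CPM in LK2-ctrl and 30.7, 39.4 and 43.7 CPM in LK2-maspin libraries, which overlapped. It was at 62.1, 51.3 and 58.3 CPM in LC-AI-ctrl and 36.4, 37.3 and 39.4 CPM in LC-AI-maspin libraries, which did not, and the difference was -0.81 ± 0.17 (adjusted p = 0.0141). CIT differed by -0.50 ± 0.10 (adjusted p = 0.0101) and ACTN4 by -0.41 ± 0.07 (adjusted p = 0.00288), each with a positive log2 fold change in LK-2 (0.30 and 0.16, not called) and a negative one in the other line. These 3 calls held under all 19 alternatives, while each of the other 7 was lost when 1 of several libraries was left out.

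Between the ctrl lines, the lists moved as unevenly as the motor itself. Of the partners on the actin filament 19 of 20 were higher in LC-AI-ctrl cells and 1 was lower, with a median log2 fold change of 1.95. Of all genes tested, 31.6% were higher and 32.1% lower, and of those with a mean of at least 10 CPM 52.6% were higher. Of the small GTPases and regulators 14 were higher and 3 lower of 20, while of the unconventional myosins 6 were higher and 10 lower of 23. The actin-binding TPM2, which was chosen after its values were seen, was at 2.66 CPM in LK2-ctrl and at 483 CPM in LC-AI-ctrl cells (7.51 ± 0.12, adjusted p = 9.52e-16). S100A4 was at 0.260 and 86.1 CPM (8.39 ± 0.21, adjusted p = 7.63e-14). Both are among the genes with the largest differences in the lists, as MYL9 was among the 10 genes.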

How the data were processed

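Poly(A) RNA of 12 samples was sequenced as strand-specific libraries. Per the labels and the methods, the authors used Trimmomatic (ver. 0.39) for trimming, BWA (ver. 0.7.17) with GRCh38.p13 for mapping, and SAMtools (ver. 1.12 in LK-2, ver. 1.10 in RERF-LC-AI). They deposited counts of mapped reads per gene in a table for each cell line. The sources used here do not name the counting tool. The authors also deposited signal columns scaled by library total or by TMM (edgeR ver. 3.16.5), which were not used. Of counts from 1 to 9, 23.7 to 26.0% were odd, which fits pairs counted as 2 reads, with fewer fragments than counts. Lines without a gene symbol, with 0.292 to 0.416% of the counts, were left out.

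Counts were fitted in edgeR (ver. 4.0.16, R ver. 4.3.3) and tested by quasi-likelihood after TMM scaling and edgeR's own filter on low values (count of 10, total of 15), with p-values adjusted after Benjamini-Hochberg over all genes tested and a threshold of 0.05. Levels use 1 set of TMM factors over 12 libraries, and log2 fold changes come from the fit of each comparison. The SE is the size of the log2 fold change over the square root of F, and the 95% interval uses a normal approximation. The alternatives were DESeq2 (ver. 1.42.0), other scalings and filters, a likelihood ratio test, which the study names, 1 fit of all libraries, the replicate number as a block, and leaving out each library. On simulated data with 200 changed genes, 98.4% of changes of 1 log2 unit were recovered in LK-2 (25795 genes), 100.0% in RERF-LC-AI (24721 genes), 97.0% between ctrl lines (25711 genes) and 96.9% for the difference between lines (27579 genes). Of the genes called there, 5.71%, 6.92%, 2.38% and 6.45% were false, in the same order. The simulation gave every gene the same dispersion. Most changes with maspin reported here are under 1 log2 unit, and these shares do not cover them.

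The members and lists were chosen with earlier results of these data known. Named are all 10 members, of each list up to 4 called genes per line by smallest adjusted p, and the 5 genes most like MYH14. The results of 2 genes are not reported here, although the counts of the lists include them. MYL11 was matched by its older symbol MYLPF. Replicates were compared pairwise and differed beyond counting noise (chi-square per degree of freedom 4.70 to 26.5). Pairs counted as 2 reads would by themselves raise these values. Each library entered the fits as 1 sample, although such a spread does not show that the libraries came from separate cultures. Sequences are from GENCODE v44 (GRCh38) and RefSeq (GRCh38.p14), lengths from the main transcript of each gene. Python (ver. 3.11.15), pandas (ver. 2.3.3) and matplotlib (ver. 3.10.9) were used for tables and plots.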

Additional observations from a re-analysis of the deposited data

Results flagged for a closer look

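The maspin effect is given for 10 genes for which it differed between the lines, each taken as the log2 fold change in RERF-LC-AI minus that in LK-2 cells in 1 edgeR fit of 12 libraries. For MYH14 the difference of -1.02 is a description, since the gene was chosen on these values, and the fold change was positive in both lines. The others passed the interaction test. ACTN4 differed by -0.413, RDX by -0.410, CIT by -0.498, ANLN by -0.370 and MYO18A by -0.813. ARHGEF12 (-0.346) and CALD1 (-0.393) are outside the naming rule and were named after their values were seen. Of the 12 leave-one-out fits, ended calls numbered 4 for RDX, 7 for ANLN and ARHGEF12, 8 for CALD1, 3 for ARHGDIB and 5 for S100A4, with adjusted p up to 0.190, and 0 for ACTN4, CIT and MYO18A. ARHGDIB differed by -2.17 and S100A4 by -1.62, but both were near the floor in LK-2 cells, with 4 to 12 counts of ARHGDIB and at most 0.830 CPM of S100A4 in any library. No group had the 4 libraries needed to look for a single library apart from the others.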

How the results depend on the processing

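No called value changed direction. Of the 799 values of named genes under the alternatives, 747 kept their side of the threshold, 46 lost a call and 6 gained one. The genes of the motor were chosen with the maspin against ctrl values known, so their counts within a line are only a description. In LK-2 cells the 1 called gene of the motor stayed 1 with every setting but the replicate block. In RERF-LC-AI cells the 3 became 4 with DESeq2 (MYL12A added), 1 with all 12 libraries in 1 fit, and 1 to 3 when 1 library was left out (1 without LC-AI-ctrl replicate 2 or 3 or LC-AI-maspin replicate 3, and MYL12A in place of MYLK without LC-AI-maspin replicate 2). All 10 or 9 of 10 were called between the ctrl lines. The 1 listed gene called in LK-2 cells became 3 with DESeq2, 2 with no filter, 3 with the likelihood ratio test, 5 with all 12 libraries in 1 fit, and 0 to 2 without 1 library (0 without LK2-ctrl replicate 2 or LK2-maspin replicate 2). The 32 in RERF-LC-AI cells became 16 with all 12 libraries in 1 fit, and 20 to 32 without 1 library (20 without LC-AI-ctrl replicate 3, 21 without LC-AI-maspin replicate 3). The 10 genes with a difference between lines became 3 to 12 without 1 library (3 without LK2-maspin replicate 2, 4 without LC-AI-ctrl replicate 3 or LC-AI-maspin replicate 3, 5 without LK2-ctrl replicate 2 or LC-AI-maspin replicate 1, 6 without LC-AI-ctrl replicate 2). The cause of these changes was not tested.

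Deviations of equally numbered libraries correlated by 0.154, 0.0144 and 0.164 in LK-2 and by 0.0437, 0.0533 and 0.00167 in RERF-LC-AI cells. In LK-2, replicate 1 of one group and replicate 3 of the other correlated by -0.145 and -0.161. The main fits did not pair the samples by number, and the source of these correlations was not tested. The replicate block raised the calls over all genes from 140 to 1190 in LK-2 and from 2655 to 4081 in RERF-LC-AI cells. For the difference between lines they rose from 494 to 2273. With the replicate block, 2 genes of the motor were called in LK-2 (MYH14 and MYL12A) and 6 in RERF-LC-AI cells (MYL6, MYL12A and ROCK2 added), 13 listed genes in LK-2 and 27 for the difference between lines. The 24 to 46 counts of MYL9 in LK-2 libraries limit its precision there.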
